A study of Sus scrofa with 37 samples.

Results

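The 9 control libraries of a contusion time course in Bama minipigs, a miniature pig breed, were examined for what control skeletal muscle expressed most and for which genes differed most between them. They were chosen as the 9 columns titled control, out of 37 libraries in all. RNA from flash-frozen skeletal muscle was sequenced in 4 libraries at each of 7 times after contusion, a blunt mechanical injury (every 4 h up to 24 h, then 48 h), and in the 9 controls. The design text names 8 minipigs. It is therefore possible that control libraries share animals, and if every control came from those 8 animals, at least 2 of the 9 did. Which libraries share an animal is not in the labels, nor are an age or sex or the name of the muscle. Controls carry the same treatment label as injured samples, mechanical damage, so how control muscle was handled before sampling is not known here. Every p-value below measures the spread between libraries, which may be technical.

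Skeletal muscle is a mosaic of slow fibres, which contract with slow myosin and burn fat and sugar in mitochondria, and fast fibres, which use fast myosin and rely more on glycolysis. The proportion differs between muscles, between regions of 1 muscle and with use. Muscles also keep traces of where in the body they formed: the HOX transcription factors, expressed in overlapping domains from head to tail and along the limbs, stay on in adult cells of different positions. Other sources of difference between biopsies are fat cells between the fibres, connective tissue, and regulators that change with the hour of the day or with handling, such as the circadian clock genes and the immediate early genes.

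Values are CPM, counts scaled to a common library total, after TMM scaling, a correction for composition. Column totals were 9.86 to 22.9 M counts in the injured libraries and 10.3 to 12.3 M in the controls. Each of the 9418 gene rows reaches at least 101 counts in some library, so a total is not the sequencing depth. In the controls 3 counts corresponded to 0.236 to 0.369 CPM, and this floor covers counting error only. The table holds no row for the fast myosin heavy chain genes MYH1, MYH2 and MYH4 or for the skeletal actin gene ACTA1, which are not analysed here. The control libraries carried the muscle label in their genes: the 20 listed core sarcomere genes in the table summed to 70883 to 119591 CPM, and the 8 listed neutrophil genes to 3.20 to 16.2 CPM. No control pair agreed within sampling noise. A chi-square of the counts of 2 libraries gave 22.4 per degree of freedom for libraries 3 and 8, the most alike of the 36 pairs, and 447 for the least alike. Libraries also split by a few genes that no label explains. C1QBP, which encodes a mitochondrial matrix protein, was at 12.9 and 10.7 CPM in libraries 1 and 2 and at most 1.52 CPM in the others, and ND6, the mitochondrial complex I gene transcribed opposite to its fellow subunits, was at 6.66 to 13.8 CPM in libraries 3, 4, 5 and 8 and at 111 to 163 CPM in the others.

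The most abundant genes were those of the mitochondrial genome, glycolysis and the contractile apparatus. COX1, the mitochondrially encoded catalytic subunit of cytochrome c oxidase, averaged 67332 ± 15902 CPM (SD, n = 9) and took 6.17% of the counts. GAPDH, the glycolytic dehydrogenase often used as a reference gene, averaged 36587 ± 23647 CPM. CKM, muscle creatine kinase, averaged 24091 ± 4832 CPM. After COX3 came ALDOA, the muscle aldolase, at 22909.5 ± 16567 CPM, and MYH7, the slow myosin heavy chain, at 18559.7 ± 13192 CPM. TPM2, a tropomyosin, ENO3, the muscle enolase, ATP6, a mitochondrially encoded subunit of ATP synthase, and COX2 completed the first 10 genes, with means of 15019.5, 14486, 13942 and 13604 CPM. The next 5 were MYL2, the slow regulatory light chain, PYGM, muscle glycogen phosphorylase, NEB, the thin filament ruler nebulin, TNNC2, fast troponin C, and TPM1, with means of 12788, 12042, 11164, 11152 and 10816 CPM. These are shares of reads, and a long transcript gives more reads than a short one at the same number of molecules, so their order is not an order of molecules.

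These shares were steady in sum and uneven in their parts. The 10 most abundant genes took 22.7% ± 1.23 of the counts (SD, n = 9, 20.7% to 24.4%), the 100 most abundant 52.9% ± 2.79, and the 12 mitochondrially encoded genes 13.8% ± 2.84 (10.4% to 18.8%). COX1 differed by 1.90-fold between its highest and lowest control library. GAPDH differed by 4.91-fold, between 79564 CPM in library 5 and 16207 CPM in library 8. MYH7 was at 9807, 30161, 33474, 19405, 6905, 6581, 2451, 39020.4 and 19232 CPM in control libraries 1 to 9. Library 8 was the highest and library 7 the lowest, with libraries 5 and 6 next to it.

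Between control libraries most genes varied little and a few varied by orders of magnitude. Over the 8367 genes with a mean of at least 5 CPM, the median SD of log2 CPM was 0.31 (quartiles 0.23 and 0.44), and 230 genes, 2.75%, had an SD of at least 1. Without libraries 5, 6 and 7, chosen after the data were examined because their fast fibre and HOXC genes stood apart, 106 genes had such an SD, and with a mean of at least 20 CPM required it was 133. The pooled SD within injury times had a median of 0.33 over injured libraries, and 46.9% of genes had a larger SD in the controls than there. By list, the median SD was 1.39 for the 21 listed positional factors above 5 CPM, 1.25 for 15 slow fibre genes, 0.97 for 19 glycolysis genes and 0.96 for 13 fast fibre genes. It was 0.25 for 24 ribosomal protein genes, 0.26 for 11 mitochondrially encoded genes and 0.28 for 26 nuclear genes of the respiratory chain.

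**Figure D1:**
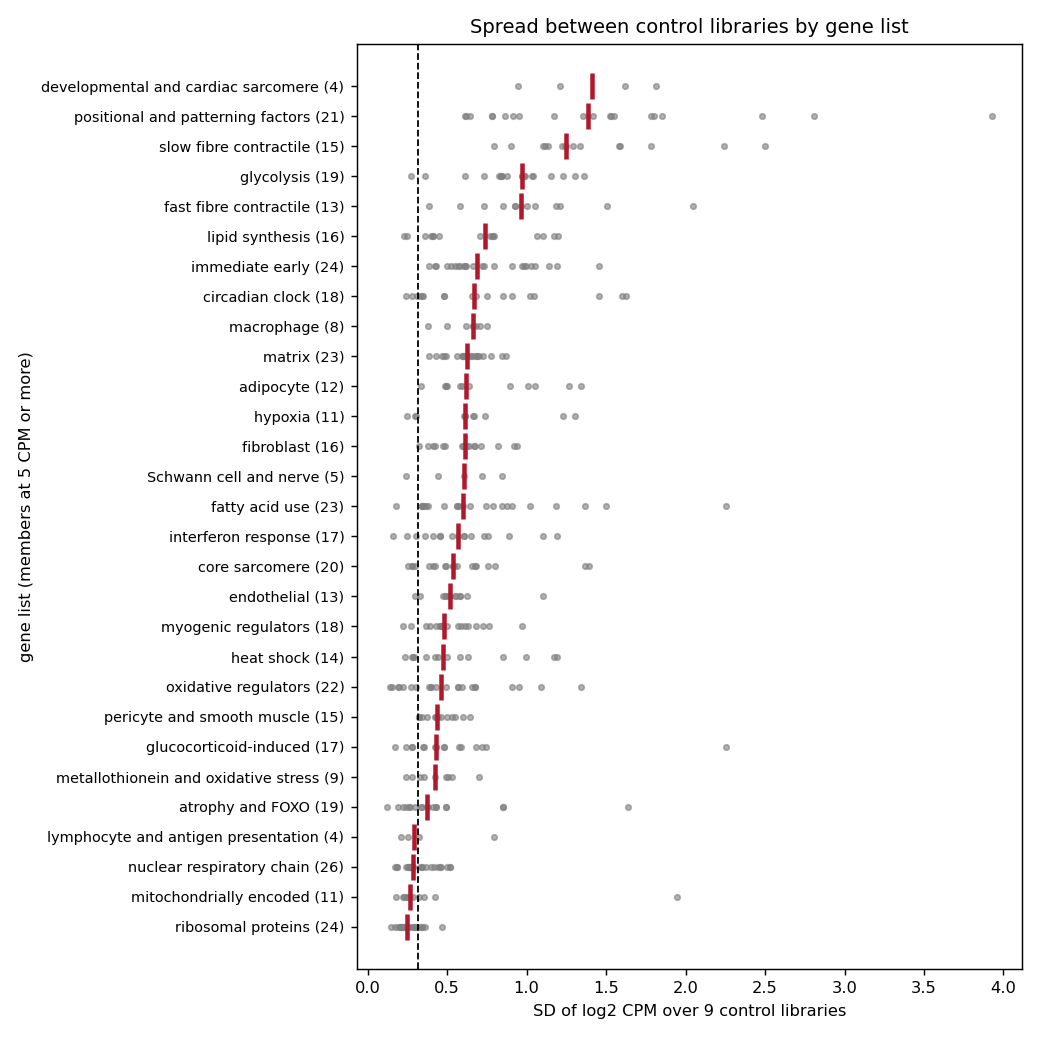
Spread between the 9 control libraries by gene list. Each grey point is the SD of log2 CPM of 1 gene with a mean of at least 5 CPM, the red mark is the median of its list, the number of genes is in brackets, and the dashed line is the median over 8367 genes, 0.31. The medians of positional, slow fibre, fast fibre and glycolysis genes lie to the right of the line, those of ribosomal and respiratory chain genes to its left.

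The 30 genes of highest SD, chosen by those values, are described without a test. Their SD had a median of 1.95, the thirtieth being GPA33 at 1.75 and the next CRTAC1 at 1.75. In the injured libraries, which the choice did not use, their pooled SD within times had a median of 0.76, and it lay above the all-gene median for 29 of the 30. It reached 1 for 7 of them, against 1.05% of all genes. The floor of 5 CPM was set on control means only. Some of the 30 were near the counting floor in injured libraries, with medians of 0.092 CPM for RFLNA, 0.302 CPM for SBK2 and 0.299 CPM for BARX2. Counting error adds to the SD of such genes, so the comparison with all genes is not at equal abundance. The mean of the controls lay inside the range of the injured libraries for 18 of the 30.

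**Figure D2:**
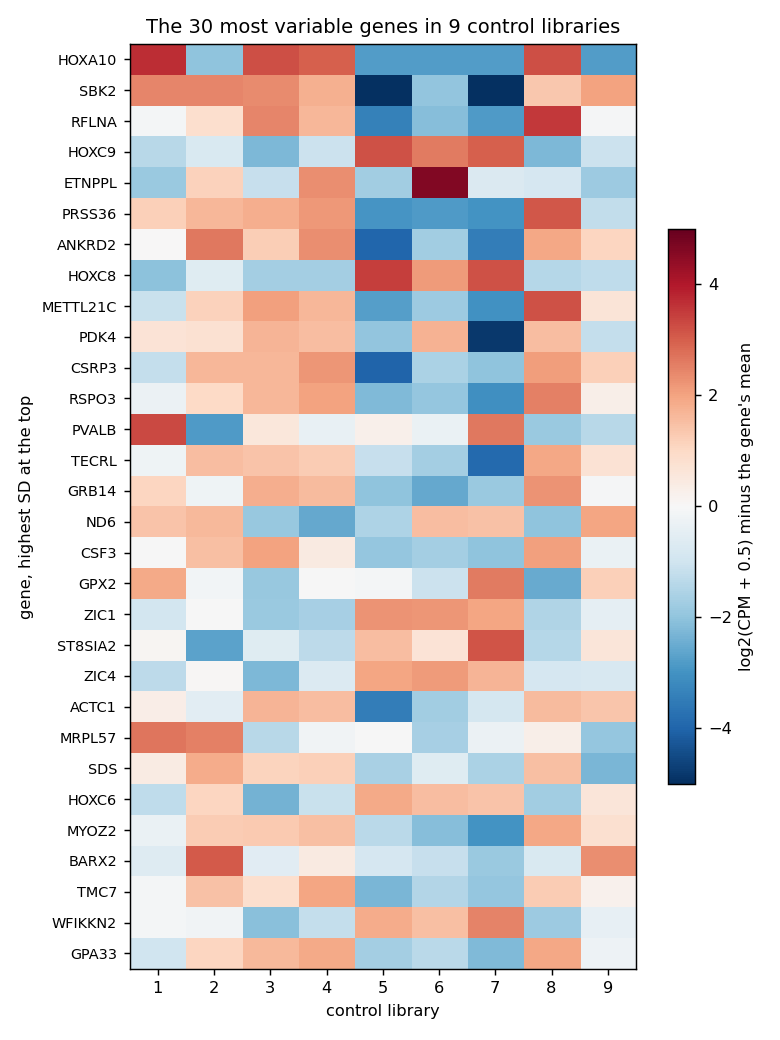
The 30 genes with the highest SD of log2 CPM among the 9 control libraries, from the highest at the top. Colour gives log2(CPM + 0.5) minus the gene's mean over the 9 libraries. Libraries 5, 6 and 7 share low values of SBK2, PRSS36, METTL21C, RSPO3 and MYOZ2 and high values of HOXC8, HOXC9 and ZIC1, and HOXA10 is high in libraries 1, 3, 4 and 8 alone.

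SBK2, a serine/threonine kinase, was at 199, 197, 189, 124, 0.369, 8.78, 0.659, 91.8 and 149 CPM in libraries 1 to 9. Libraries 5, 6 and 7 were the lowest. The same 3 were the lowest for RSPO3, a secreted enhancer of Wnt signalling, at 2.83, 3.51 and 1.32 CPM, with 11.9 to 87.6 CPM in the others. PRSS36, a secreted serine protease, was at 1.65 to 1.85 CPM in them and at 6.79 to 147 CPM in the others, and RFLNA, a filamin partner, at 0 to 0.683 and 4.32 to 59.2 CPM. ACTC1, the cardiac actin, was also lowest there, at 6.64, 22.6 and 41.3 CPM, with 54.0 to 253 CPM in the others. Genes with their highest values in libraries 5, 6 and 7 were ST8SIA2, a polysialic acid synthase, at 25.8, 14.2 and 80.1 CPM there and at most 13.5 CPM elsewhere, and WFIKKN2, an inhibitor of myostatin-type ligands, at 19.7, 15.6 and 31.3 CPM and at most 4.71 CPM. Others had a peak of their own. ETNPPL, an enzyme that breaks down phosphoethanolamine, was at 50.5 CPM in library 6 and at most 9.73 CPM elsewhere. MRPL57, a mitochondrial ribosomal protein, was at 26.7 and 24.1 CPM in libraries 1 and 2 and at most 4.78 CPM in the others, the division that C1QBP showed. GPX2, a glutathione peroxidase, was highest in libraries 7 and 1, at 31.8 and 19.1 CPM, and lowest in library 8, at 0.435 CPM. CSF3, a growth factor for neutrophils, ranged over 0.439 to 15.5 CPM, GRB14, an adaptor of the insulin receptor, over 0.781 to 34.8 CPM, SDS, serine dehydratase, over 0.272 to 13.3 CPM, and TMC7, a channel-like membrane protein, over 0.492 to 18.6 CPM.

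Positional transcription factors held the gene of highest SD, HOXA10 at 3.93, and several were present in some control libraries and at or under the counting floor in others. HOXA10 (chromosome 18, 45393525 to 45403259, Sscrofa11.1), a posterior HOX factor, was at 44.7, 31.9, 27.4 and 32.3 CPM in libraries 1, 3, 4 and 8. It was at 0.365 CPM in library 2 and had no counts in libraries 5, 6, 7 and 9. HOXC8 (chromosome 5, 19222124 to 19225734) was at 0.393, 1.92, 0.628, 0.615, 39.4, 15.4, 32.3, 0.870 and 0.996 CPM in libraries 1 to 9. Libraries 5, 6 and 7 alone were above 2 CPM. Its neighbour HOXC9 was at 21.0, 13.9 and 18.3 CPM in those 3 and at most 0.913 CPM elsewhere, and HOXC10 was at between 7.03 and 7.61 CPM in them and at most 1.55 CPM elsewhere. HOXC6, at the other end of the same stretch of chromosome 5, was less divided, at 19.3, 14.8 and 13.7 CPM in libraries 5, 6 and 7 and at 0.523 to 10.9 CPM in the others.

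Other patterning factors showed one of these divisions or another. ZIC1 and ZIC4, zinc finger factors encoded side by side on chromosome 13, were at 18.5 to 22.1 and 10.7 to 14.3 CPM in libraries 5, 6 and 7, with at most 4.20 and 3.01 CPM in the others. HOXD8 was at 39.1, 63.4, 8.79, 22.4, 151, 103, 119, 9.13 and 69.6 CPM in libraries 1 to 9, highest in libraries 5, 6 and 7 and lowest in 3 and 8. HOXA7, close to HOXA10 on chromosome 18, was at 39.3, 43.4, 23.8 and 44.0 CPM in libraries 1, 3, 4 and 8 and at 2.65 to 10.8 CPM in the rest. MEOX1, a homeobox factor of the somites, and EN1, an engrailed factor, were also highest in libraries 1, 3, 4 and 8, at 21.0 to 25.2 and 7.99 to 14.2 CPM, with at most 14.5 and 3.38 CPM in the others. A pattern shared by libraries 2 and 9 was that of BARX2, a homeobox factor of myoblasts, at 34.2 and 20.6 CPM there and at most 5.23 CPM in the others. In the same libraries TBX1, a T-box factor of head muscle development, was at 51.0 and 27.2 CPM, and at 5.41 to 17.4 CPM in the others, and IRX3, an Iroquois factor, was at 34.4 and 24.4 CPM there and at 1.99 to 19.1 CPM in the others. HOXB7 was even, at 1.98 to 3.18 CPM.

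The injured libraries resembled some controls in these genes and not others. HOXC8 was at 5.07 to 35.4 CPM in all 28 injured libraries, above controls 1, 2, 3, 4, 8 and 9 and overlapping controls 5, 6 and 7. ZIC1 was at 8.29 to 40.8 CPM in the injured libraries, again above all but those 3 controls. HOXC10 was at 3.38 to 72.3 CPM in the injured libraries (median 24.4), against 7.61 CPM at most in the controls. BARX2 was at most 4.06 CPM in the injured libraries, against 34.2 and 20.6 CPM in controls 2 and 9. A quasi-likelihood test in edgeR of the mean of the 7 times against control, adjusted by Benjamini-Hochberg, called 5548 of 9410 genes, 59%, of which 2597 (27.6%) were higher and 2951 (31.4%) lower in injured muscle. With scaling by column totals, which shifts the median of all genes to 0.16 on the log2 scale from -0.03, 3422 were higher and 1940 lower. Among the 25 listed positional factors, 3 were called higher and 16 lower. HOXC10 differed by 3.30 ± 0.60 (SE, log2, adjusted p = 2.62e-05) and BARX2 by -4.48 ± 0.46 (adjusted p = 4.49e-09). HOXA10 was called lower by edgeR, at -1.87 ± 0.64 (adjusted p = 0.0131), but limma-voom gave 1.11, the opposite direction, and its injured libraries, at 0.117 to 13.9 CPM, lay below the 4 controls with the most HOXA10 and reached above the other 5. As the labels do not name the muscle, differences between injured and control libraries in such genes cannot be told apart from differences in sampling site.

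**Figure D3:**
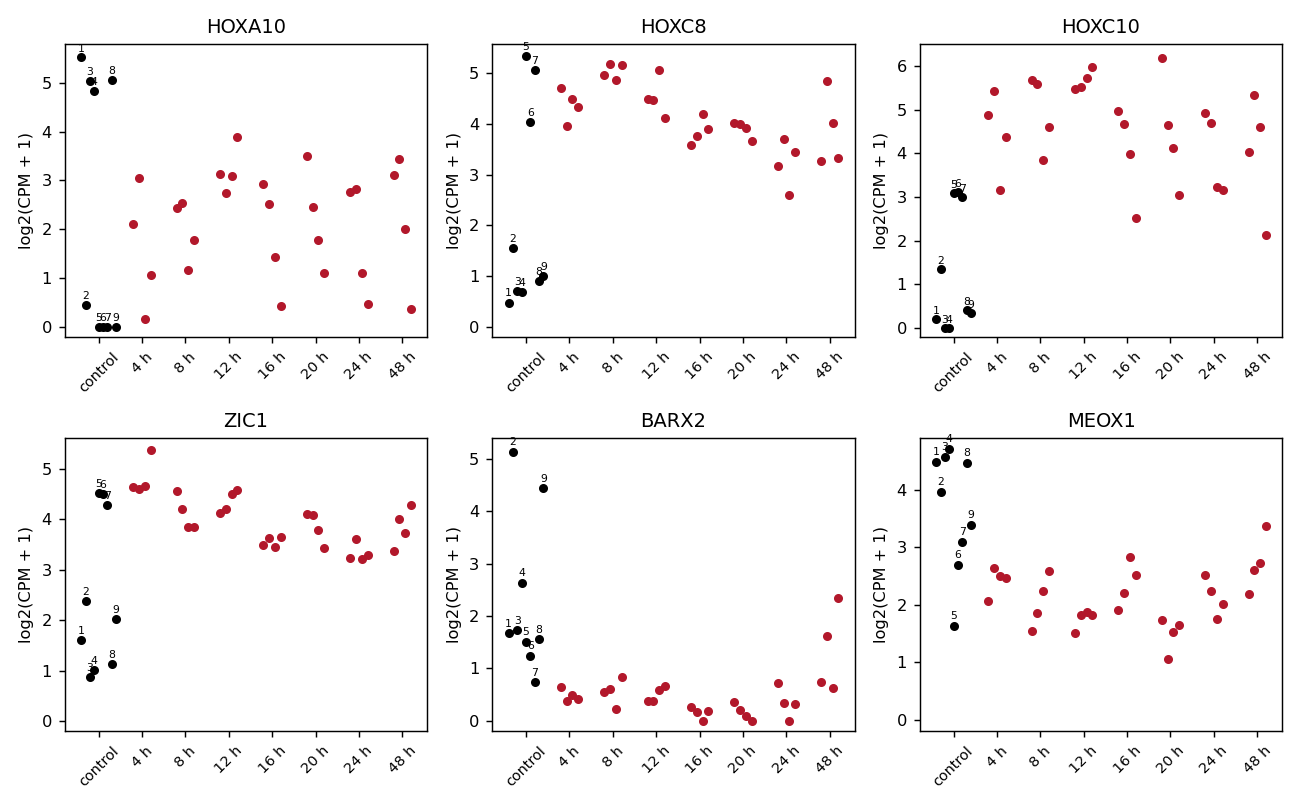
Positional factors in all 37 libraries, as log2(CPM + 1), 1 point a library, controls in black with their library number and injured libraries in red by hours after injury. HOXC8 and ZIC1 in injured muscle overlap controls 5, 6 and 7 and lie above the other 6. HOXA10 in injured muscle lies below controls 1, 3, 4 and 8, and BARX2 does not reach controls 2, 4 and 9.

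Fibre type genes moved together across the controls. Slow fibre genes were high in libraries 2, 3, 4 and 8, lower in 9 and 1, and lowest in 5, 6 and 7, while fast fibre genes and glycolytic enzymes ran the other way. The median slow fibre gene stood 1.29 above its own mean in library 2 and 2.26 below it in library 7 (-2.26, log2). The median fast fibre gene stood 1.40 above its mean in library 5, 1.30 above in library 7 and at -1.33 in library 8. In bulk tissue, fewer fibres of a type and less RNA per fibre cannot be told apart.

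**Figure D4:**
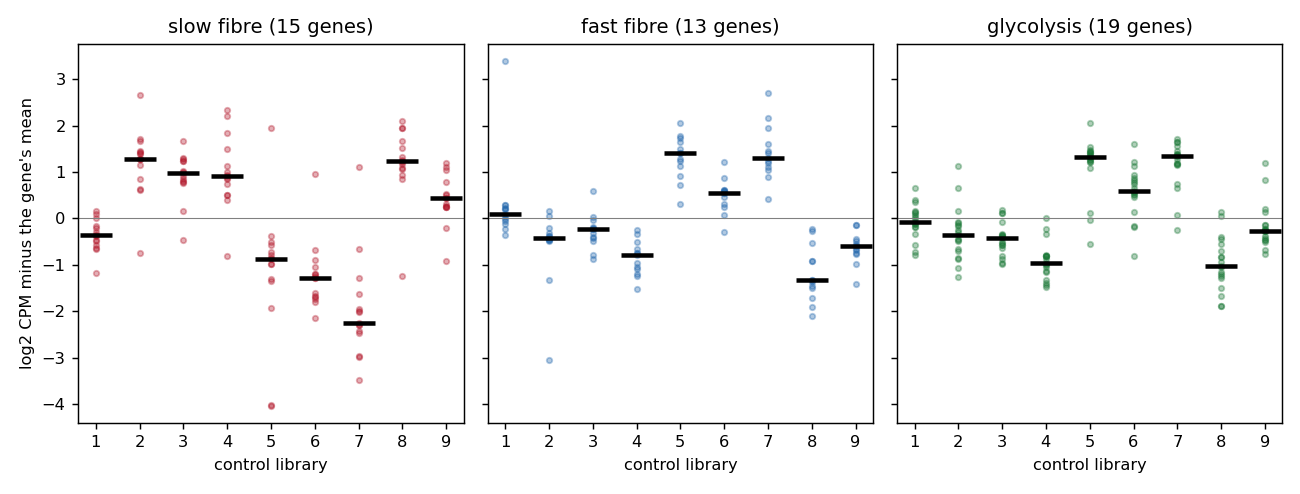
Slow fibre (15), fast fibre (13) and glycolysis (19) genes in the 9 control libraries. Points are single genes, as log2 CPM minus the gene's mean over the libraries, and black bars are medians. The medians of the slow genes are lowest in libraries 5, 6 and 7, where those of fast and glycolysis genes are highest.

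The slow light chain MYL2 was at 6602, 22848, 20066, 18609, 4633, 2665, 1099, 26957 and 11610.4 CPM in libraries 1 to 9. TNNT1, slow troponin T, was at 4708, 14127, 11407, 11564, 2945, 2398, 1187, 14579 and 6822 CPM. Both were lowest in library 7 and highest in library 8, as MYH7 was. ANKRD2, an ankyrin repeat protein abundant in slow fibres, was at 8.73 CPM in library 5 and 895 CPM in library 2. CSRP3, the muscle LIM protein of the Z-disc, was at 32.1 CPM in library 5 and 2383 CPM in library 4. MYOZ2, a calcineurin-binding Z-disc protein of slow fibres, was at 216 CPM in library 7 and 6607 CPM in library 8. The reverse held for ACTN3, the Z-disc actinin of fast fibres, at 6608, 3699.6 and 7091 CPM in libraries 5, 6 and 7 and at 373 to 1623 CPM in the others. TPM1 was at 26280.0, 11863 and 29854 CPM in libraries 5, 6 and 7 and at 2730.2 to 7121 CPM in the others. PVALB, the calcium buffer parvalbumin, did not keep to this order, with 206 CPM in library 1, 127 CPM in library 7 and 2.37 CPM in library 2. SLN, sarcolipin, an inhibitor of the calcium pump listed with slow fibres, ran with the fast genes, at 8168, 4101 and 4597 CPM in libraries 5, 6 and 7 and at 892 to 2369 CPM in the others.

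To count the genes that varied with slow fibre content, each gene was fitted with a slope on log2 CPM of MYH7 over the 9 controls, where a slope of 1 means a change by the same fold as MYH7. A low value in even 1 control could keep a gene from passing the filter for this fit and the slopes below. HOXA10, the HOXC genes and SBK2 were not tested, and many others of the 30 genes of highest SD were not. CACNA2D3 was dropped too, at 0.864 CPM in library 1 and 1.87 to 27.8 CPM in the others. EdgeR called 888 of 8949 genes, 9.92%, of which 538 (6.01%) rose with MYH7 and 350 (3.91%) fell. With upper quartile scaling the split was 430 and 463. Of 14 slow fibre genes tested, 13 rose and SLN fell, with a median slope of 0.91, against 0.02 over all genes. Of 13 fast fibre genes 11 fell (median -0.61), the others being PVALB at -1.01 (adjusted p = 0.147) and MYOZ1 at -0.17 (adjusted p = 0.282). Of 19 glycolysis genes 15 fell (median -0.57), and of 24 genes of fatty acid use 13 rose and none fell (median 0.37). MYH7 itself was the measure and is left out of these counts.

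Several of these counts rested on few libraries. The number called was 403 without library 7, 453 without library 8, 578 without library 3, 115 without the 2 libraries farthest from the median of MYH7 (6 and 7), and 461 with a term for the sets defined by C1QBP and ND6. Without libraries 5, 6 and 7 together it was 2. In those 6 libraries 13 of the 14 slow fibre genes still had a positive slope (median 0.79) and 11 of the 13 fast fibre genes a negative one (median -0.43), and 834 of the 888 genes kept their sign. MUSK, the receptor kinase of the neuromuscular junction, was among those that did not, with a slope of 0.19 there.

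The genes closest to MYH7 by the size of their p-value were not all contractile. ABHD18, an abhydrolase domain protein, had a slope of 0.87 ± 0.07 (SE, adjusted p = 7.41e-05, edgeR, n = 9 libraries) and was at 4.50 CPM in library 7 and 46.6 CPM in library 8. TECRL, an enoyl-CoA reductase-like protein linked to heart rhythm, had a slope of 1.42 ± 0.11, at 4.83 CPM in library 7 and 299 CPM in library 8. LMCD1, a LIM and cysteine-rich domain protein of striated muscle, had one of 0.97 ± 0.08, MYL2 one of 1.17 ± 0.11, and MYL3, the slow essential light chain, one of 0.93 ± 0.09. PROX1, a homeobox factor known to promote the slow fibre programme, had a slope of 0.85 ± 0.08 and was at 3.19 to 24.7 CPM. METTL21C, a lysine methyltransferase of muscle, had the steepest of these, 1.76 ± 0.17, and was at 1.98 CPM in library 7 and 180 CPM in library 8. The 5 falling genes with the smallest p were NFE2L3, a CNC-bZIP transcription factor, SLC16A5, a monocarboxylate carrier, ATP2B2, a plasma membrane calcium pump, MAF, a bZIP transcription factor, and BPGM, bisphosphoglycerate mutase. Their slopes were -0.96, -0.89, -0.73, -0.69 and -0.92. NFE2L3 was at 10.6, 8.30 and 20.3 CPM in libraries 5, 6 and 7 and at most 3.69 CPM in the others.

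Among glycolytic enzymes, LDHA, the lactate dehydrogenase subunit of fast muscle, was at 16695, 7731 and 13264 CPM in libraries 5, 6 and 7 and at 1266 to 4258 CPM in the others (slope -0.95 ± 0.14, SE, adjusted p = 0.00199). FBP2, the muscle fructose bisphosphatase, fell with MYH7 at a slope of -0.94. ALDOA and GAPDH fell at slopes of -0.66 and -0.55, so GAPDH was not an even reference among these controls. Of the genes of fatty acid use, FABP3, the muscle fatty acid binding protein, was at 121, 264 and 91.7 CPM in libraries 5, 6 and 7 and at 594 to 1429.7 CPM in the others. It rose with MYH7 at a slope of 1.00 (adjusted p = 0.00334). CPT1B, the muscle gate for fatty acids into mitochondria, rose at 0.59 (adjusted p = 0.0307) and PLIN5, a lipid droplet protein of oxidative muscle, at 0.81 (adjusted p = 0.0288). PDK4, the kinase that turns down pyruvate use in fasting, had a wide spread and was not called with MYH7, at 600.1, 645, 1212, 1099, 96.3, 1271, 12.7, 1087 and 166 CPM in libraries 1 to 9. Libraries 5, 7 and 9 were low and library 6 was the highest, and the slope was 0.63 (adjusted p = 0.367).

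Nuclear genes of the respiratory chain had small positive slopes on MYH7. Of 26 such genes 6 rose and none fell, against 6.01% of all genes rising. All 26 slopes were above 0 (median 0.15), where 4973 of all 8949 genes had such a slope. Without library 3, 7 or 8 the number called was 1, while all 26 slopes were still above 0, with medians of 0.14, 0.24 and 0.14. None was called with the set term, without libraries 5, 6 and 7 or with the clock gene DBP as a second term. Of the 26 slopes 24, 24 and 21 were then above 0. No call was made among 12 mitochondrially encoded genes. ND6 was the exception in spread, with an SD of 1.95, while the SDs of the other 11 were at most 0.52. ND6 divided the libraries otherwise than the fibre genes did, with a slope of -0.31 on MYH7 (adjusted p = 0.67).

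Regulators of fibre type and oxidative metabolism moved in both directions. Of 22 listed, 5 rose with MYH7 and 3 fell, against 6.01% and 3.91% of all genes. Without library 7, 3 rose and 2 fell. None was called without libraries 5, 6 and 7 or with DBP as a second term. ESRRB, an estrogen-related receptor, was at 4.80, 5.17 and 2.97 CPM in libraries 5, 6 and 7 and at 15.5 to 41.9 CPM in the others (slope 0.96, adjusted p = 0.000792). ESRRG, its relative that promotes oxidative fibres, rose at 0.76 (adjusted p = 0.0187), with 143 CPM in library 2 and 11.2 to 37.8 CPM in the others. PPARGC1A, the coactivator of mitochondrial biogenesis, rose at 0.35 (adjusted p = 0.0267), between 21.1 CPM in library 7 and 80.5 CPM in library 2. SOX6, a repressor of slow fibre genes, fell at -0.60 (adjusted p = 0.00589), with 104, 85.7 and 125 CPM in libraries 5, 6 and 7 and 20.1 to 42.0 CPM in the others. NRIP1, a corepressor of oxidative genes, fell at -0.57 (adjusted p = 0.00984). MSTN, myostatin, the brake on muscle growth, fell at -1.13 (adjusted p = 0.00756), at 137, 55.4 and 74.6 CPM in libraries 5, 6 and 7 and at 4.38 to 16.3 CPM in the others. MYH8, the perinatal myosin, fell too, at -1.07 (adjusted p = 0.018), with 237 CPM in library 5 and 5.75 CPM in library 2.

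Some lists outside the contractile apparatus were called with MYH7 more often than all genes were. Of 17 interferon response genes 11 rose, with a median slope of 0.33. RSAD2, an antiviral enzyme, was at 31.9 and 32.8 CPM in libraries 3 and 8 and at 3.63 CPM in library 7. Of 14 heat shock genes 8 rose (median 0.27), among them CRYAB, the small heat shock protein that protects desmin and the Z-disc, at 446 CPM in library 4 and 46.0 CPM in library 7. Interferon calls were 4 without library 7, 5 without library 8 and 2 with the set term, where calls over all genes were 403, 453 and 461. The median interferon slopes there were 0.44, 0.35 and 0.33. All 11 called genes kept their sign, but so did all 888 genes called for MYH7, so this sets the list apart in no way. Heat shock calls were 6, 5 and 8 under those settings. No gene was called among 25 immediate early and 23 matrix genes. Among markers of other cells, 3 of 13 endothelial genes (KDR, TEK and FLT1) rose with MYH7, against 6.01% of all genes. The 2 of 15 pericyte and smooth muscle genes and the 1 of 16 fibroblast genes that rose were near that share, and of 5 Schwann cell genes MBP fell. Without library 8 the endothelial, pericyte and fibroblast calls were 1, 0 and 0, and without libraries 5, 6 and 7 the median endothelial slope was -0.15, against 0.21 with all 9. Their part in the fibre type pattern was not tested.

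Clock genes also divided the control libraries. ARNTL, which encodes the clock activator BMAL1, was at 43.0, 42.3 and 34.6 CPM in libraries 2, 3 and 8 and at 3.19 to 8.40 CPM in the other 6. PER2, a repressor in the same loop, was at 4.11, 1.88 and 2.72 CPM in libraries 2, 3 and 8 and at 19.8 to 29.5 CPM in the others. This division was read from these same values and is a description. DBP, a clock output factor normally opposite in phase to ARNTL, was at 11.4, 2.37, 2.62, 5.12, 13.7, 10.2, 14.4, 3.04 and 8.69 CPM in libraries 1 to 9. It was low in the 3 libraries that were high in ARNTL, with library 4 between. NPAS2, a partner of BMAL1, and NFIL3, a repressor of DBP targets, ran with ARNTL. The hours at which the control samples were taken are not given in the sources used here.

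Over the 9 controls 563 genes, 6.29%, were called for a slope on DBP, 202 (2.26%) rising and 361 (4.03%) falling. Of 17 clock genes other than DBP 4 rose and 5 fell, the steepest being ARNTL at -1.50 ± 0.16 (SE, adjusted p = 0.00234, edgeR) and PER2 at 1.35 (adjusted p = 0.00722). CIART, a clock repressor, rose at 0.80 ± 0.09 (adjusted p = 0.00234), with 12.2 to 24.0 CPM in libraries 2, 3, 4 and 8 and 42.3 to 48.5 CPM in the others. Others among the 8 rising genes of smallest p were WNT5B, a Wnt ligand, CDO1, cysteine dioxygenase, MAF, HNMT, which inactivates histamine, ALDH1A3, a retinoic acid synthesising enzyme, SULT1A3, a sulfotransferase, and PBX3, a HOX cofactor, with slopes of 0.60 to 1.07. The falling ones after ARNTL were PLA2G7, the plasma form of platelet-activating factor hydrolase, YPEL2, RETREG1, a receptor for autophagy of the endoplasmic reticulum, and the interferon-induced ISG12(A). RETREG1 was at 612 CPM in library 2, 231 and 284 CPM in libraries 3 and 8, and 45.7 to 120 CPM in the others.

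The clock gene DBP and the slow fibre gene MYH7 ran in opposite directions, and a fit holding both left almost no call for either. MYH7 and DBP were inversely related over the 9 controls (Pearson r = -0.89, exact permutation p = 0.0019, adjusted over 10 pairs 0.019, Spearman rho = -0.88, exact permutation p = 0.00308, adjusted 0.0308). Without libraries 6 and 7, the farthest from the median of MYH7, r was -0.93 (n = 7). Within the 6 libraries left without 5, 6 and 7, r was -0.91, with an adjusted exact permutation p of 0.153, and with scaling by column totals r was -0.82 (adjusted exact permutation p = 0.0769). With DBP as a second term 1 gene was called for MYH7, and with MYH7 as a second term none was for DBP in edgeR. In the fit of MYH7 with DBP beside it, the slopes of fibre genes were about as large as without DBP: the median was 0.86 over 14 slow fibre genes, against 0.91 without DBP, -0.66 over 13 fast fibre genes, against -0.61, and -0.62 over 19 glycolysis genes, against -0.57. All 14 slow, 11 fast and 15 glycolysis genes called for MYH7 kept their sign there, as did 861 of all 888 genes called and 4 of the 7 clock genes. MYH7 is itself a slow fibre gene, at a mean of 18559.7 CPM against 7.95 CPM for DBP. With r at -0.89 over 9 libraries, a fit holding both cannot tell fibre type and clock apart. In the fit of DBP with MYH7 beside it, the median slope was -0.09 over 15 slow fibre genes, against -1.03 without MYH7, and -0.08 over 13 fast fibre genes, against 0.68. All 9 clock genes called for DBP kept their sign in that fit, and none was called there. The count of 563 was 171, 175, 305, 328 and 1043 without libraries 8, 7, 3, 6 and 1, 72 without 5, 6 and 7, and 37 with the set term.

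**Figure D5:**
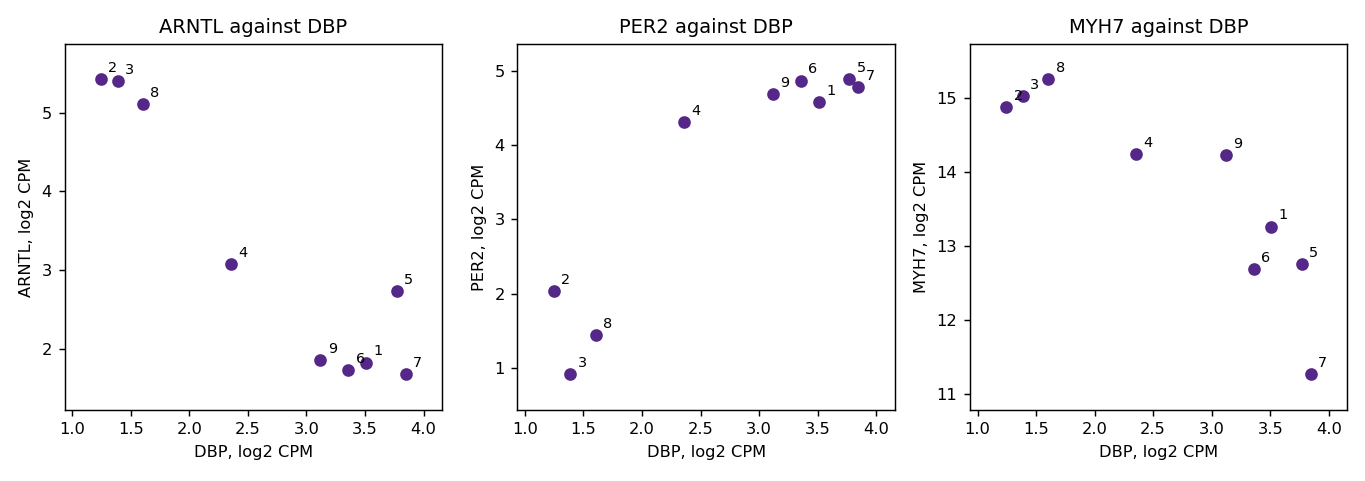
ARNTL, PER2 and MYH7 against DBP in the 9 control libraries, in log2 CPM with the library number beside each point. Libraries 2, 3 and 8 lie at low DBP with high ARNTL, low PER2 and high MYH7, and library 4 lies between them and the other 5.

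ADIPOQ and PLIN1, markers of fat cells, followed another order of libraries than the fibre genes. ADIPOQ, the adipocyte hormone adiponectin, was at 35.4, 92.3, 73.2, 16.8, 69.7, 141, 22.0, 36.6 and 75.7 CPM in libraries 1 to 9. PLIN1, which coats the lipid droplet of adipocytes, was at 11.7, 56.5, 19.9, 4.10, 28.7, 50.3, 5.27, 7.50 and 20.1 CPM. Both were highest in libraries 2 and 6 and lowest in 4 and 7. PLIN1 was the one gene called for a slope on ADIPOQ, at 1.32 ± 0.15 (SE, adjusted p = 0.0174, edgeR), 0.0112% of genes (0.0112% rising, 0% falling). This call was lost without library 1, 4, 6 or 7, and 126 genes had an unadjusted p under 0.05. CIDEC, another droplet protein of fat cells, had a slope of 1.02 (adjusted p = 0.326) and FABP4, the adipocyte fatty acid binding protein, one of 0.40 (adjusted p = 1). The relation of ADIPOQ to MYH7 was weak (r = 0.15, exact permutation p = 0.691, adjusted 0.85, n = 9). Over 11 other genes of the adipocyte list, the median slope on ADIPOQ was 0.24, against -0.0003 over all genes, with PLIN1 the only call. The sum of the list took another order than ADIPOQ, and abundant members weigh most in a sum. It was lowest in libraries 7, 5 and 6, at 1323, 1882 and 2081 CPM. It was highest in 8, 2 and 3, at 3610.0, 3587 and 3247 CPM. These are libraries low and high in slow fibre genes. Of the 12 adipocyte genes tested on MYH7, 11 had a positive slope and 3 rose, THRSP, and LPL and CD36, which muscle fibres and vessels also express. Over all genes 4973 of 8949 slopes were positive. Without library 7 the number positive was 7 of the 12, with a median slope of 0.15 against 0.27. It was 7 with DBP as a second term and 10 without libraries 5, 6 and 7. Lipid synthesis varied by its own order: SCD, the stearoyl-CoA desaturase, was at 28.5, 129, 160, 18.0, 41.1, 17.0, 60.1, 52.1 and 118 CPM in libraries 1 to 9, high in 2, 3 and 9.

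Matrix genes differed between controls in yet another order of libraries. COL1A1, a chain of type I collagen, was at 1357, 291, 704, 396, 473, 685, 809, 563 and 1237 CPM in libraries 1 to 9, highest in 1 and 9 and lowest in 2. Over the 22 other matrix genes tested, the median slope on COL1A1 was 0.63, against -0.02 over all genes. EdgeR called 11 genes, 0.123%, for a slope on COL1A1, all rising (0.123%) and none falling (0%). They were COL1A2 (0.88 ± 0.12, adjusted p = 0.021), COL5A1, COL16A1, AEBP1, a collagen-binding protein, C1QTNF6, CCDC80, MRC2, a collagen receptor, MMP2, a gelatinase, ADAMTS2 and ADAMTS12, proteases of the matrix, and LOXL2, a cross-linking enzyme. The count was 0 without library 2, 3, 8 or 9, 1 without library 1, 2 without library 4, 7 without library 7 and 0 with the set term, and it was 22 without libraries 5, 6 and 7 and 135 by DESeq2. HBB, a haemoglobin chain carried by blood, was also highest in library 1, at 467 CPM, with at most 262 CPM in the others, and the part of blood or vessels in the matrix values was not tested.

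Immediate early genes differed between controls, and no single gene passed the test for a slope on FOS. FOS, a subunit of AP-1 that is induced within minutes of stimulation, was at 572, 861, 225, 445, 401, 665, 495, 114 and 1089.7 CPM in libraries 1 to 9. Library 9 was the highest and library 8 the lowest. The same 2 libraries were at the ends for EGR1, at 628 and 56.7 CPM, and FOSB, at 65.3 and 4.35 CPM. ATF3 was at 675 CPM in library 9 and at most 209 CPM in the others, and NR4A3, an orphan receptor induced by contraction, was at 181 CPM there and at most 72.8 CPM elsewhere. No gene was called by edgeR for a slope on FOS (0% of genes, 0% rising and 0% falling), with 534 at an unadjusted p under 0.05. DESeq2 called 20 and limma-voom 1. Over the 24 other immediate early genes tested, the median slope on FOS was 0.42, against 0.01 over all genes. This median was not tested. The 27 listed genes summed to 1363 to 6646 CPM in the injured libraries and to 1611 to 6066 CPM in the controls, ranges that overlap over most of their length. Single genes differed: 11 of the 27 were called higher and 8 lower in injured muscle, with a median log2 difference of 0.17, while 59% of all genes were called.

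Neutrophil and macrophage markers were low. The 8 neutrophil genes in the table summed to 2.85 to 364 CPM in the injured libraries and 3.20 to 16.2 CPM in the controls, and none of them averaged 5 CPM there. The 15 macrophage genes summed to 118 to 825 CPM in the injured libraries, against 68.9 CPM in control 8 and 233 CPM in control 1. All 8 neutrophil genes and 11 of 15 macrophage genes were called higher in injured muscle, against 27.6% of all genes. The 5 lymphocyte and antigen presentation genes in the table summed to 173 to 334 CPM in the injured libraries and 193 to 342 CPM in the controls. Most of that sum was B2M, the light chain of class I molecules that most cells carry, at 122 to 265 CPM in the injured libraries and 138 to 281 CPM in the controls. NKG7, a granule protein of killer cells, was the 1 gene of the 5 called higher after injury, a smaller share than that of all genes.

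The slow fibre genes that divided the controls were lower in the injured libraries: 14 of 15 were called, all lower, with a median log2 difference of -2.23, against -0.03 over all genes. Their sum was 8138 to 63197 CPM in the injured libraries and 18813 to 158646 CPM in the controls, so the lowest controls lay inside the injured range. The lowest were controls 5, 6 and 7, at 44212, 31568 and 18813 CPM, which the injured libraries also overlapped in HOXC8 and ZIC1. Injury and sampling site therefore cannot be told apart for fibre genes either. Of 13 fast fibre genes 3 were called, all lower, a smaller share than the 59% of all genes called and the 31.4% called lower, and their median difference was 0.15. For MSTN the direction turned when controls 5, 6 and 7 were left out: called lower with 9 controls, it had a difference of 0.29 with 6.

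At the other end of the scale, the 5 most even genes above 50 CPM were TRMT1L, a tRNA methyltransferase-like protein, BRAF, a kinase of growth signalling, HNRNPUL1, an RNA-binding protein, C4orf3, a small membrane protein, and SELENOT, a selenoprotein of the endoplasmic reticulum. TRMT1L was at 93.1, 99.7, 107, 95.5, 102, 104, 99.3, 102 and 96.5 CPM in libraries 1 to 9, an SD of 0.06 on the log2 scale. Its pooled SD within injury times was 0.18. BRAF was at 46.3 to 54.6 CPM and HNRNPUL1 at 110 to 131 CPM. As these were chosen for their low SD, the values are a description.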

How the data were processed

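Per the labels' protocols, RNA was extracted with Trizol from flash-frozen muscle, libraries were made with the NEBNext Ultra kit and sequenced as 150 bp read pairs. The submitters' processing notes list HISAT2 2.2.1, HTSeq, Trimmomatic, FastQC and MultiQC beside the build Sscrofa11.1. The sources used here name neither an annotation release nor a strand setting. The authors deposited raw counts, 1 row a gene. Of 9418 rows, the 2 that share 1 symbol were left out.

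Counts were scaled by TMM over 37 libraries, and the SD was taken of log2 CPM with a prior count of 2. Slopes on MYH7, ADIPOQ, FOS, DBP and COL1A1 were fitted over the 9 controls with edgeR 4.0.16 (quasi-likelihood, filterByExpr, Benjamini-Hochberg, threshold 0.05, R 4.3.3), and the mean of the 7 injury times against control over 37 libraries. The slope genes enter as measured, so their own error is not modelled. DESeq2 1.42.0 and limma 3.58.1 were alternatives, with other scalings, filters and left-out libraries. Relations among the 5 slope genes used exact permutation tests over 10 pairs. Correlations across libraries are two-sided. The fits were tested on simulated data: a slope of 1 on MYH7 was recovered in 98% and a slope of 0.5 in 68% of changed genes, with 11 false among 177 calls over 8949 genes. For injured against control, a log2 difference of 1 was recovered in 91%, with 6 false among 197 calls over 9410 genes. Whether these rates hold for libraries that may share animals or fall into sets, or for genes that move together, was not tested.

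Genes named are the 15 most abundant, the 30 of highest and 5 of lowest SD, the 8 rising and 5 falling calls of smallest p for each slope, up to 6 members of each list by SD, and further list members chosen after their values were seen. The libraries, slope genes and gene lists were chosen with earlier results of these data known. For same-numbered libraries, the median correlation of their deviations from the group means lay between -0.05 and 0.11 for replicate numbers 1 to 4. Single pairs ranged from -0.62 to 0.60. Differently numbered pairs were not compared, so these values cannot show whether same-numbered libraries share an animal. Gene positions come from RefSeq annotation of Sscrofa11.1.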

Additional observations from a re-analysis of the deposited data

Results flagged for a closer look

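Of 82 values checked for a single library far from the other 8, 1 stood apart, and chance gives about 1 in 20. The 82 were the list sums, the slope genes, the 30 genes of highest SD and the 15 most abundant genes. The 2 mast cell genes in the table summed to 3.20 CPM in control library 2, with 7.75 to 11.9 CPM in the other controls. The gap to the nearest library was 0.675 of the whole range, above the critical ratio of 0.493. Its cause was not tested.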

How the results depend on the processing

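The 9 controls limit what the slopes can show, a called slope often rests on few libraries, and the table holds only genes with a high count in some library. The count of 888 genes for MYH7 was 403 to 1103 leaving out 1 library at a time, 115 without the 2 libraries farthest from the median, 461 with a set term, 2 without controls 5, 6 and 7 and 1 with DBP as a second term. The 563 for DBP were 171 to 1043 leaving out 1 library, 1002 by DESeq2, 253 without the 2 farthest, 37 with the set term, 1036 without the libraries high in C1QBP, 72 without controls 5, 6 and 7 and 0 with MYH7 as a second term. The 1 gene for ADIPOQ became 3 by DESeq2, 0 by limma-voom, 0 without the 2 farthest, 2 with the set term, 0 without controls 5, 6 and 7 and 0 to 1 leaving out 1 library. The 0 for FOS became 20 by DESeq2, 1 by limma-voom and 0 to 1 leaving out 1 library. The 11 for COL1A1 became 21 with upper quartile scaling, 135 by DESeq2, 22 without controls 5, 6 and 7, 0 to 10 leaving out 1 library, and 0 without the 2 farthest, with the set term or without the libraries high in C1QBP. The 230 genes with an SD of at least 1 were 192 to 256 leaving out 1 library, 133 with a floor of 20 CPM and 106 without controls 5, 6 and 7. The correlation of MYH7 and DBP was -0.82 with column totals and -0.91 without controls 5, 6 and 7, and 0 of 10 pairs passed under either. Without mitochondrially encoded genes the 10 most abundant took 18.5% of the counts. The labels do not say whether the replicate numbers pair libraries. With the replicate number as a block 4246 genes were called between injured and control muscle, where 5548 were called without it.

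Directions turned in 11 cases among the named genes. Without controls 5, 6 and 7 the slope of MUSK on MYH7 was 0.19. With DBP as a second term the slopes on MYH7 were -0.18 for ARNTL, -0.000948 for ESRRG, 0.076 for CIART, 0.26 for CDO1, 0.15 for HNMT, 0.13 for ALDH1A3 and 0.092 for SULT1A3. Between injured and control muscle limma-voom gave 1.11 for HOXA10, the replicate block gave 0.30 for MSTN, and leaving out controls 5, 6 and 7 gave 0.29 for MSTN. The cause was not tested. Of the other values for named genes, 130 between injured and control muscle and 384 slopes on MYH7 kept their direction and missed the threshold. There, 2264 and 1507 kept both. For slopes on COL1A1, DBP and ADIPOQ, 84, 54 and 7 values kept their direction and missed the threshold, and 87, 346 and 12 kept both.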
